A study of Mus musculus with 10 samples.

Results

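The 40 genes described here encode postsynaptic scaffolds (20 genes) and synaptic adhesion molecules with the receptors that bind them (20 genes). Members were named by gene symbol, and each was read by its brightest probe set among those whose annotation names only that gene. By that rule 39 of the 40 members were measured, among 18193 genes on the array, and Shank2 has no probe set that names it alone. The choice of probe set used the mean over all 10 arrays and no difference between genotypes.

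RNA of the cortex was read in 10 female mice, 5 WT and 5 Crtc1-/- (labelled Crtc1KO), with 1 Affymetrix GeneChip for each mouse. All mice were of the C57BL/6N strain, 2 months old, untreated and kept on standard chow, and the WT mice were littermates of the Crtc1-/- mice. Crtc1 encodes a coactivator of the transcription factor CREB, and the labels name no promoter or cell type for the knockout. The methods state that experiments ran over several batches of mice, and the labels give no batch for the arrays. Values are log2 signals as deposited, each group mean is given ± SD over 5 mice, and differences are Crtc1-/- minus WT on the log2 scale. A gene was called when its adjusted p, corrected over all genes in limma by the method of Benjamini and Hochberg, was below 0.05.

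The postsynaptic density lies under the membrane of excitatory synapses and holds glutamate receptors in place. MAGUK proteins such as PSD-95 bind receptors and adhesion molecules, SAPAP proteins link the MAGUKs to SHANK, and SHANK and Homer tie this lattice to actin and to metabotropic receptors. Across the cleft, presynaptic neurexins and receptor phosphatases bind postsynaptic neuroligins, LRRTM, NGL and SLITRK proteins, and these contacts help to form, specify and maintain synapses. Gephyrin does the scaffold's work at inhibitory synapses.

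Crtc1 itself read 9.51 to 9.86 in WT mice and 5.96 to 6.60 in Crtc1-/- mice, so the labels fitted the targeted gene in all 10 arrays. Arrays correlated with each other between 0.994 and 0.998, and their medians lay within 0.032. WT replicate 1 held the highest or the lowest of the 10 values in 28.8% of all genes, where each other array did so in 16.7% to 23.5%. The mean of 10 pan-neuronal markers was 12.10 ± 0.02 in WT and 12.10 ± 0.04 in Crtc1-/- cortex, and that of 9 markers of excitatory cortical neurons was 9.51 ± 0.06 and 9.46 ± 0.03. Of these 9 excitatory markers 7 were lower in the mean of Crtc1-/- mice, and 5 (4 lower, 1 higher) had an unadjusted p below 0.05. No marker list differed at an adjusted p below 0.05. A list alone could not reach that, since the smallest exact permutation p for 5 against 5 gives 0.103 over 13 lists. The adjusted values therefore do not show that the lists were alike. Of the oligodendrocyte markers 11 of 11 had a higher mean in Crtc1-/- mice, with per-array means of 9.97 to 10.30 in WT and 10.23 to 10.55 in Crtc1-/- mice (p = 0.0476 by a two-sided exact permutation test, 0.138 after correction over 13 marker lists). Precursors of oligodendrocytes gave 7.99 to 8.15 and 8.11 to 8.26 (exact permutation p = 0.0317, adjusted 0.138), hippocampal markers 5.45 to 5.59 and 5.28 to 5.41 (exact permutation p = 0.00794, the smallest that 5 against 5 allows, adjusted 0.103) and interneuron markers 9.65 to 9.77 and 9.57 to 9.68 (exact permutation p = 0.0159, adjusted 0.103). Of the 11 hippocampal markers 7 were lower in Crtc1-/- mice and 2 were called. Of the 8 interneuron markers 7 were lower, and Sst (−0.54) was the one called, while the median of the list was −0.026. The difference between 3′ and 5′ probe sets of β-actin, a sign of RNA quality, was 0.76 in WT and 0.73 in Crtc1-/- mice (exact permutation p = 0.270).

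CREB binds the cAMP response element (CRE), so promoters of members were searched for its letters. RefSeq promoters of build GRCm38.p6, from 250 bases before to 50 bases after each start, were listed for 32 of the 40 members with 51 starts. The short site TGACG, read on either strand and contained in the full site, was present in 8 of the 51 member promoters (15.7%) against 20.8% of 32851 promoters in the table. The full palindrome TGACGTCA was present in 1 (1.96%, against 1.79% of the table). A match is a run of letters and no measure of binding. The windows of 130 bases below run from 100 bases before the start to 30 bases after it, 5′ to 3′ on the gene's strand, with the matched letters in capitals. Dlgap1, Dlgap4 and Dlg4 are shown as the scaffolds with the lowest p values, Homer1 for its 3 short sites and Ptprs for the full site. Where several starts were listed, one that holds a match was taken. They lie at chr17:69968973-69969102 (plus strand, Dlgap1), chr2:156720865-156720994 (plus strand, Dlgap4), chr11:70023882-70024011 (plus strand, Dlg4), chr13:93303657-93303786 (plus strand, Homer1) and chr17:56476451-56476580 (minus strand, Ptprs).
Dlgap1: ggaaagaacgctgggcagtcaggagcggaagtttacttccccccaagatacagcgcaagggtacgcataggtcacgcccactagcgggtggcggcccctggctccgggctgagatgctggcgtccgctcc
Dlgap4: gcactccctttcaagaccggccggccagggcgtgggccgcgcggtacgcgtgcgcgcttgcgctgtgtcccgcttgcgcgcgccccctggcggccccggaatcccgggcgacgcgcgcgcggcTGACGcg
Dlg4: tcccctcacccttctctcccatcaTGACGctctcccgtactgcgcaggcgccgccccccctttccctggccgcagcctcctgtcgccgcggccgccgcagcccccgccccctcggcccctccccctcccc
Homer1: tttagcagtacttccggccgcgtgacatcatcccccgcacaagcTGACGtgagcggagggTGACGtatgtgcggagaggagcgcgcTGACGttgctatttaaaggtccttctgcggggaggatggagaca
Ptprs: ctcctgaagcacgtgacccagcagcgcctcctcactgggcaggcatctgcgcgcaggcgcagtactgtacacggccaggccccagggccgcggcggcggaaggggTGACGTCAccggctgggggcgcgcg
The short sites of Homer1 begin 56, 40 and 14 bases before the start, and the full site of Ptprs begins 5 bases after it. The promoter of Dlgap1, the member with the smallest p, holds no short site in the stretch searched.

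None of the 39 measured members was called, in either direction, where 0.764% of all 18193 genes were (0.456% lower and 0.308% higher). Without correction 4 of 39 members (10.3%) had p below 0.05, against 9.86% of all genes. In this fit the members' share was therefore near that of the array. The 4 were Dlgap1, Dlgap4 and Lrrc4b, lower in the mean of Crtc1-/- mice, and Ptprd, higher. Without WT replicate 1 none of the members was called and 4, not necessarily the same genes, had p below 0.05, against 8.70% of all genes. Over the alternative fits described below, that count ran from 0 with the hippocampal covariate to 8 with a trended and robust prior. With that prior the share of all genes was 10.5%. With array weights the count was 6, against 9.92% of all genes. Groups did not overlap in 1 member (2.56%), Dlgap1, which was lower in Crtc1-/- mice, against 3.14% of all genes in either direction and 2.04% with Crtc1-/- lower. The median difference over the members was 0.0058, with 21 above and 18 below 0, and over all genes it was −0.0030, with 48.4% above 0. Since this is bulk cortex, fewer cells of a type and less RNA per cell cannot be told apart in any of these values. The part of the oligodendrocyte and hippocampal markers in the members' values was not tested. Fits with each marker mean as a covariate left 1 and 0 members with an unadjusted p below 0.05, against 6.23% and 7.04% of all genes. The oligodendrocyte mean was higher on average in Crtc1-/- mice, and the hippocampal mean did not overlap between the genotypes. These fits therefore cannot part the marker means from genotype.

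**Figure D1:**
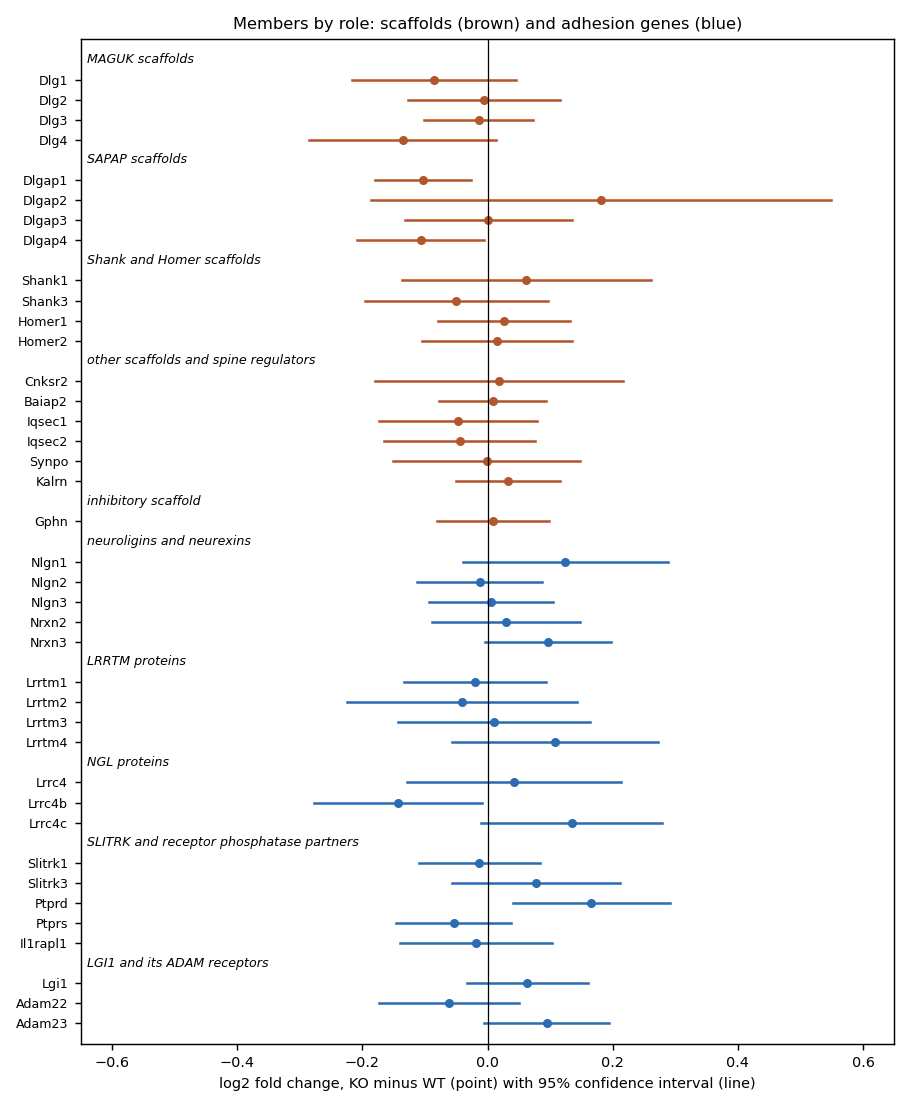
Log2 difference between Crtc1-/- and WT cortex (x axis) for each of the 39 measured members (rows), with points for the estimate and lines for its 95% confidence interval from limma, 5 mice per genotype. Members are grouped by role, with scaffolds in brown and adhesion genes in blue, and all intervals but those of Dlgap1, Dlgap4, Lrrc4b and Ptprd cross 0.

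Among the MAGUK scaffolds all 4 genes lay below 0 and none was called. Dlg4, which encodes PSD-95, read 11.10, 11.06, 10.99, 10.75 and 10.80 in the 5 WT mice and 10.78, 10.76, 10.83, 10.87 and 10.78 in the 5 Crtc1-/- mice. WT replicates 1 to 3 were above every Crtc1-/- mouse, replicate 4 was the lowest array of all and replicate 5 lay among the Crtc1-/- mice. The difference was −0.14 (standard error 0.07, adjusted p = 0.567 from limma). In size it was smaller than the SD of the WT group, 0.16, and larger than that of the Crtc1-/- group, 0.046. Dlg1, which encodes SAP97, differed by −0.085, and Dlg2 and Dlg3, which encode PSD-93 and SAP102, by −0.0060 and −0.014.

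The SAPAP scaffolds held both the least and the most variable member. Dlgap1 read 11.32, 11.33, 11.34, 11.35 and 11.36 in WT mice and 11.29, 11.22, 11.23, 11.24 and 11.21 in Crtc1-/- mice. Every Crtc1-/- mouse was below every WT mouse, yet the groups were only 0.10 apart (11.34 ± 0.01 against 11.24 ± 0.03, fold 0.931, 95% interval 0.883 to 0.982, adjusted p = 0.313 from limma). Its SD within groups, 0.025, was the lowest of the members, and with no moderation of the variance across genes its adjusted p was 0.0477, while over the other alternatives it ran from 0.0785 to 0.768. Dlgap4 read 10.28, 10.31, 10.24, 10.12 and 10.21 in WT and 10.10, 10.20, 10.07, 10.16 and 10.10 in Crtc1-/- mice. Its groups overlapped through WT replicate 4, and the difference was −0.11 (standard error 0.05, adjusted p = 0.471 from limma). Dlgap2 had the largest difference of any member and also the widest spread. It read 7.78, 8.35, 8.67, 8.56 and 8.35 in WT and 8.76, 8.81, 8.11, 8.53 and 8.40 in Crtc1-/- mice, and the groups overlapped over most of their range. The difference of 0.18 (standard error 0.17, adjusted p = 0.824 from limma) was 0.041 without WT replicate 1, the lowest of the 10 arrays. Dlgap2 is the only member on the chromosome of Crtc1, chromosome 8, where it lies 868 genes away in the RefSeq gene order. Dlgap3 differed by 0.0012.

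**Figure D2:**
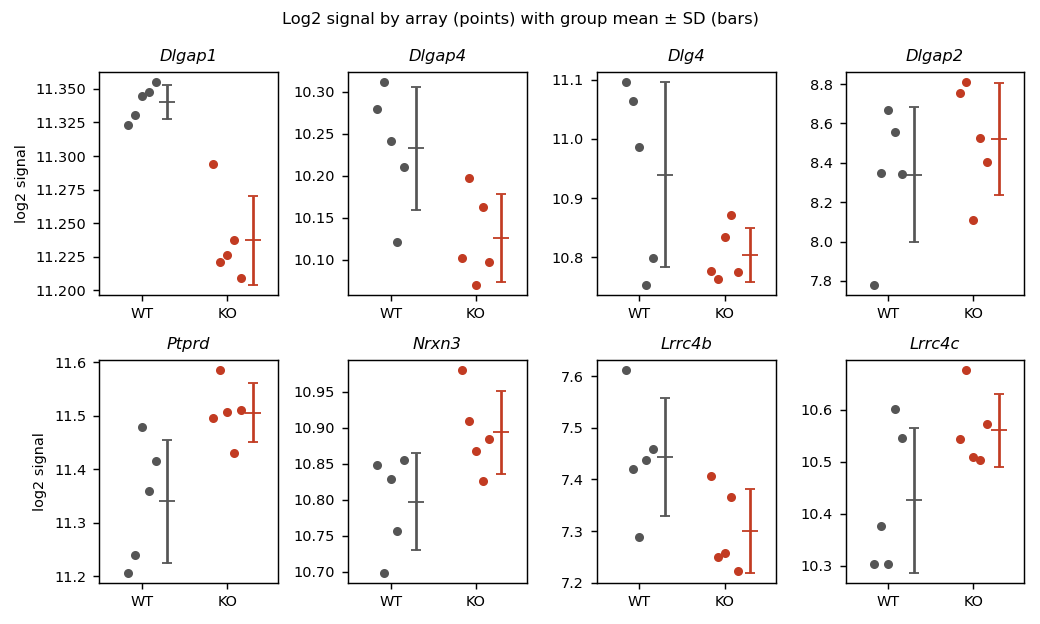
Log2 signal (y axis, with its own scale in each panel) of 8 members in each WT (grey) and Crtc1-/- (red) array, with bars for the group mean ± SD, n = 5. Dlgap1 is the panel whose groups are apart, with WT mice at 11.32 to 11.36 and Crtc1-/- mice at 11.21 to 11.29, and in the other 7 panels the groups overlap.

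Of the Shank and Homer scaffolds, 4 of 5 were measured and none was called. Shank3 read 9.93, 9.80, 9.75, 9.56 and 9.65 in WT and 9.67, 9.78, 9.61, 9.75 and 9.64 in Crtc1-/- mice. All 5 Crtc1-/- mice lay within the WT range, and the difference was −0.050 (standard error 0.07, adjusted p = 0.886 from limma). Shank1 had a dim probe set, at 4.64 to 5.05 in WT and 4.82 to 5.16 in Crtc1-/- mice, a difference of 0.062 with a 95% interval of 0.909 to 1.20 in fold. Homer1, whose gene also gives a short form that neuronal activity induces, differed by 0.026 and Homer2 by 0.015.

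The scaffolds and spine regulators outside these families, along with gephyrin, differed least. Kalrn, a regulator of the shape of dendritic spines, read 12.26 to 12.31 in WT and 12.26 to 12.38 in Crtc1-/- mice, a difference of 0.032 (standard error 0.04). Iqsec1, an Arf exchange factor of the postsynaptic density, differed by −0.047 and its relative Iqsec2 by −0.045. Cnksr2, a scaffold that binds PSD-95, differed by 0.018, Baiap2, which encodes the actin regulator IRSp53, by 0.0079 and Synpo, which encodes the spine apparatus protein synaptopodin, by −0.0017. Gphn, which encodes gephyrin, read 9.50 ± 0.06 in WT and 9.51 ± 0.03 in Crtc1-/- mice. The 95% interval of its fold, 0.945 to 1.07, leaves differences of a few percent possible in either direction.

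Of the neuroligins and neurexins, 4 of 5 lay above 0 and none was called. Nrxn3, a presynaptic receptor for neuroligins and LRRTMs, read 10.85, 10.70, 10.83, 10.76 and 10.86 in WT and 10.98, 10.91, 10.87, 10.83 and 10.88 in Crtc1-/- mice. Of the Crtc1-/- mice, 4 were above every WT mouse, and replicate 4 was within the WT range (difference 0.096, standard error 0.046, adjusted p = 0.536 from limma). Nlgn1, the neuroligin of excitatory synapses, had the largest difference of its group, 0.12 (standard error 0.07, adjusted p = 0.669 from limma), with WT mice at 9.12 to 9.49 and Crtc1-/- mice at 9.36 to 9.59. Without WT replicate 1, its lowest array, Nlgn1 differed by 0.060, less than Nrxn3 did there (0.11). Nlgn2, the neuroligin of inhibitory synapses, differed by −0.013, Nlgn3 by 0.0058 and Nrxn2 by 0.029.

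The LRRTM and NGL proteins are leucine-rich repeat molecules on the postsynaptic side. Lrrc4b, which encodes the NGL protein that binds the receptor phosphatase LAR, read 7.61, 7.42, 7.29, 7.44 and 7.46 in WT and 7.41, 7.25, 7.26, 7.37 and 7.22 in Crtc1-/- mice. The WT group reached down into the Crtc1-/- group through replicate 3, and the difference was −0.14 (standard error 0.06, adjusted p = 0.457 from limma). Lrrc4c, which binds netrin-G1, differed in the other direction. It read 10.30, 10.38, 10.30, 10.60 and 10.55 in WT and 10.54, 10.68, 10.51, 10.50 and 10.57 in Crtc1-/- mice, a difference of 0.13 (standard error 0.07, adjusted p = 0.552 from limma). As with Dlg4, WT replicates 1 to 3 lay on one side of all Crtc1-/- mice, and here replicates 4 and 5 lay among them. Lrrtm4 differed by 0.11 (standard error 0.07, adjusted p = 0.737 from limma), and by 0.047 without WT replicate 2. Lrrc4 differed by 0.043, and the other 3 LRRTM genes by −0.040 (Lrrtm2), −0.020 (Lrrtm1) and 0.011 (Lrrtm3).

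Among the SLITRK proteins and the receptor phosphatases and co-receptors around them, Ptprd stood first. It encodes PTPδ, a presynaptic receptor of SLITRK3 and IL1RAPL1, and read 11.21, 11.24, 11.48, 11.36 and 11.42 in WT and 11.50, 11.59, 11.51, 11.43 and 11.51 in Crtc1-/- mice. Only WT replicate 3 reached into the Crtc1-/- group. The difference was 0.17 (fold 1.12, 95% interval 1.03 to 1.22, adjusted p = 0.324 from limma). Its relative Ptprs, whose promoter holds the full CRE shown above, differed by −0.054, its ligands Slitrk3 and Il1rapl1 by 0.078 and −0.019, and Slitrk1 by −0.013. LGI1 is a secreted protein that bridges ADAM22 and ADAM23 across the synapse. Adam23 differed by 0.095 (standard error 0.046, adjusted p = 0.541 from limma), with WT mice at 8.92 to 9.09 and Crtc1-/- mice at 9.03 to 9.16, Lgi1 by 0.063 and Adam22 by −0.061.

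Scaffolds and adhesion genes, compared as classes, lay close together. The median difference was −0.0017 over 19 scaffolds, with 9 above and 10 below 0, and 0.020 over 20 adhesion genes, with 12 above and 8 below 0. Averaged over its members in each array, the scaffold class read 9.79 to 9.89 in WT and 9.79 to 9.87 in Crtc1-/- mice, and the adhesion class 9.39 to 9.47 and 9.40 to 9.47. The adhesion mean minus the scaffold mean was −0.45, −0.50, −0.45, −0.34 and −0.39 in WT replicates 1 to 5 and −0.37, −0.40, −0.39, −0.40 and −0.36 in Crtc1-/- replicates 1 to 5. The Crtc1-/- mice lay within the WT range and were closer to each other (−0.38 ± 0.02 against −0.43 ± 0.06). No test was made of these class values, since the members were chosen with results of the data known.

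The intervals give the size of difference that 5 arrays per genotype leave possible. The 95% interval of the fold lay within 1.25-fold in either direction for 38 of 39 members, the exception being Dlgap2, where 88.1% of all genes met that bound. It lay within 1.2-fold for 32 members, within 1.15-fold for 25 and within 1.1-fold for 12, against 76.1%, 52.7% and 19.1% of all genes. The shares of all genes include dim genes and were not matched to the members in brightness. The median SD within groups was 0.086 over the members and 0.103 over all genes. Over all members the lowest bound was a fold of 0.821 (Dlg4) and the highest 1.46 (Dlgap2). The smallest difference among the genes called on this array was 0.204 on the log2 scale, larger than that of any member. These bounds were chosen after the values were seen.

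The 39 members were read by 108 probe sets that name them alone. None of the 108 was called when corrected over 45037 probe sets, of which 0.302% were, and 6 had an unadjusted p below 0.05, against 7.19% of all probe sets. Groups did not overlap in 2 (1453027_at of Dlgap1 and 1437787_at of Lrrtm2), against 2.08% of all. The Lrrtm2 probe set had the smallest adjusted p, 0.391 in limma, and read 8.78, 8.69, 8.81, 8.68 and 8.85 in WT and 8.52, 8.62, 8.62, 8.67 and 8.59 in Crtc1-/- mice. It differed by −0.16 (standard error 0.05), while the brightest probe set of the same gene, 1455489_at, differed by −0.040 (standard error 0.09). Lrrtm2, a postsynaptic ligand of neurexins, was called with neither.

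Of the 30 members with several probe sets, 18 had all of them on the same side of 0. All 7 probe sets of Ptprd were above 0, from 0.065 to 0.24, and the 3 brightest differed by 0.17, 0.13 and 0.12. All 6 of Dlgap1 were below 0, from −0.10 to −0.033, although the second brightest, 1436076_at, had overlapping groups and a difference of −0.041. The 3 probe sets of Dlg4 differed by −0.14, −0.14 and −0.043. Probe sets of 1 gene share the same 10 RNA samples and are no independent readings. The 6 probe sets of Homer1 were all above 0, from 0.026 to 0.23. The probe set with the largest difference, 1436387_at, read 10.26, 10.29, 10.05, 10.17 and 10.86 in WT and 10.32, 10.55, 10.55, 10.99 and 10.38 in Crtc1-/- mice, and WT replicate 5 stood apart from the other WT mice. Kalrn had 8 probe sets, 5 above and 3 below 0. Which isoform each probe set reads is not given in the sources used here.

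**Figure D3:**
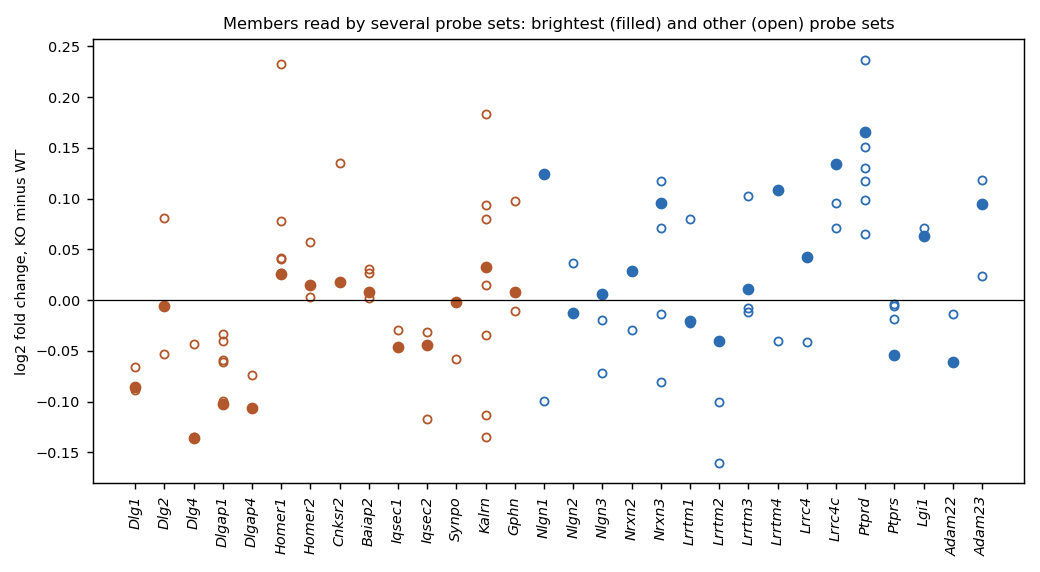
Log2 difference between Crtc1-/- and WT cortex (y axis) for every probe set of the 30 members read by more than 1 (x axis), scaffolds in brown and adhesion genes in blue. Filled points are the brightest probe set of each gene and open points the others; all points of Ptprd, Lrrc4c and Homer1 lie above 0 and all points of Dlgap1, Dlg4 and Dlg1 below it.

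The spread of the members between mice differed by genotype in size. The SD over 5 arrays was larger in WT for 32 of 39 members (82.1%), against 54.5% of all genes. The median SD of members was 0.097 in WT and 0.063 in Crtc1-/- mice, where over all genes it was 0.098 and 0.093. The split held for 17 of 19 scaffolds (median SD 0.11 against 0.050) and for 15 of 20 adhesion genes (0.092 against 0.069). This comparison was chosen after the values were seen and was not tested.

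Leaving out 1 array lowered that count most. WT replicate 1 was the highest or the lowest of the 10 arrays in 18 of 39 members (46.2%, against 28.8% of all genes). It was highest in Dlg3, Dlg4, Shank3, Iqsec2, Synpo, Nlgn2, Nlgn3, Lrrtm1, Lrrc4b and Ptprs, and lowest in Dlgap2, Shank1, Cnksr2, Nlgn1, Lrrtm3, Lrrc4, Slitrk3 and Ptprd. WT replicate 4 was at an end in 13 members (33.3%, against 19.1%). Without WT replicate 1 the SD was larger in WT for 23 of 39 members (59.0%, against 49.2% of all genes), and without any other single array for 28 to 33. In WT replicates 1 and 2 the oligodendrocyte marker mean was 10.04 and 9.97, below the 10.28 to 10.30 of the other 3 WT mice, and its part in the spread was not tested.

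**Figure D4:**
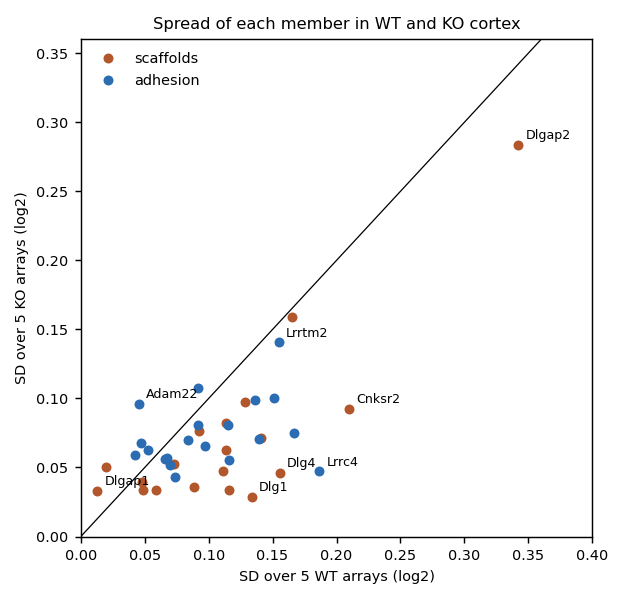
SD of the log2 signal over 5 WT arrays (x axis) and over 5 Crtc1-/- arrays (y axis) for each of 39 members, scaffolds in brown and adhesion genes in blue, with a line where both are equal. Of the points, 32 lie below the line, and Dlgap2, at the far right, has the widest spread in both groups.

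Other genes of the same structures were read in the same way from lists of 113 genes, of which 102 were measured. Of these 1 was called lower and none higher. Without correction 19 (18.6%) had p below 0.05 in limma, against 9.86% of all genes. The lists were chosen with earlier results of these data known, so this share is no test of them. With the dimmest 40% of genes left out, 13.1% of all genes had an unadjusted p below 0.05. The gene called was Efnb2, in the adhesion list, which encodes ephrin-B2, a ligand of Eph receptors that neurons and blood vessels both make. It read 9.84, 9.86, 9.80, 9.96 and 9.84 in WT and 9.62, 9.60, 9.60, 9.59 and 9.62 in Crtc1-/- mice, so that every Crtc1-/- mouse was below every WT mouse. The difference was −0.26 (standard error 0.04, adjusted p = 0.0110 from limma). Efnb2 stayed below the threshold without any single array (adjusted p 0.0165 to 0.0359), but not with the oligodendrocyte or hippocampal marker mean as a covariate (0.131 and 0.552), with a replicate block (0.0923) or with all its probe sets averaged (0.132). The hippocampal marker mean did not overlap between the genotypes, so a fit with it as a covariate cannot part it from genotype. The other 55 measured adhesion genes were not called. Cbln1 and Cbln4, secreted cerebellins that bridge neurexins to postsynaptic receptors, had the next smallest p values. Cbln1 differed by −0.42 (standard error 0.10, adjusted p = 0.102 from limma) with groups that did not overlap, and Cbln4 by −0.56 (standard error 0.16, adjusted p = 0.185 from limma) with groups that did.

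In the list of other excitatory postsynaptic genes 37 of 43 were measured and none was called. The smallest p values were those of Lzts3 (difference 0.15, adjusted p = 0.203), Apba1 (−0.17, adjusted p = 0.222) and Lin7a (−0.12, adjusted p = 0.278), all from limma. Lzts3 encodes a spine protein that binds SHANK, and Apba1 and Lin7a encode Mint1 and a Veli protein, which form a complex with CASK. Of the inhibitory list 9 of 11 were measured and none was called. Insyn2b (0.24, adjusted p = 0.213), Insyn2a (0.16, adjusted p = 0.323) and Lhfpl4 (−0.069, adjusted p = 0.674 from limma), a partner of GABA-A receptors and neuroligin 2, came first there. The probe set of Insyn2b was dim, with means of 3.32 in WT and 3.56 in Crtc1-/- mice.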

How the data were processed

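Per the labels and methods, the authors labelled cortical RNA with a 3′ IVT kit, used RACE for quality control and excluded poor arrays. The deposited values are log2 signals, 1 for each of 45101 probe sets in each array, and lay between 2.14 and 13.9 outside the controls. How they were normalized is not given in the sources used here. The number of arrays limits the precision.

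The 64 control probe sets were left out. GEO's annotation names 1 gene for 34945 probe sets, several for 932 and none for 9160. Models were fitted over all 18193 genes and over all 45037 probe sets (limma 3.58.1, lmFit and eBayes, R 4.3.3) after a test on simulated data. Marker means were compared by a two-sided exact permutation test over arrays. C1ql2 is in both the hippocampal and the adhesion list. P values set a difference against the spread between these samples, which limma moderates across genes. The labels do not tie the samples to litters.

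The members and lists were chosen with earlier results of these data known. Named by rule were Crtc1, members that passed or whose groups did not overlap at any probe set, the member with the smallest p and the one with the largest difference in each role group, those with the widest and narrowest spread, and other pathway genes that passed or had one of the 3 smallest p values of their list. Other members given with a value were chosen after the values were seen. The alternatives were other normalizations (quantile, centring on medians), filters (without the dimmest 40% of genes, without cross-hybridizing probe sets), variance settings (a robust prior with a trend, none, weights for arrays), a replicate block, the striatal, oligodendrocyte or hippocampal marker mean as a covariate, all probe sets of a gene averaged, and each array left out in turn. The last was added for the SD counts after the data were seen.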

Additional observations from a re-analysis of the deposited data

Results flagged for a closer look

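In 6 of 98 groups of 5 arrays (the 39 members, Crtc1 and 9 other pathway genes, in each genotype), 1 array lay far from the other 4 by Dixon's test at its 95% critical value of 0.71, where chance gives about 1 group in 20. Dlg3 read 9.97 in Crtc1-/- replicate 3, against 10.05 to 10.07 in the other Crtc1-/- mice. In the same array Il1rapl1 read 7.44, against 7.59 to 7.63, and Insyn2a, from the inhibitory list, 7.11, against 6.85 to 6.90. Slitrk1 read 10.33 in Crtc1-/- replicate 4, against 10.45 to 10.50. Homer1 read 11.45 in WT replicate 5, against 11.24 to 11.28, and its probe set 1436387_at was also highest of the WT mice there, at 10.86. Slitrk3 read 7.05 in WT replicate 1, against 7.24 to 7.28.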

How the results depend on the processing

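No member was called in any of the 22 alternatives except Dlgap1, called lower (1 member) with no moderation at an adjusted p of 0.0477. With a trended and robust prior its adjusted p was 0.0785, and without any single array 0.297 to 0.486. No member was called higher and no member probe set was called in any alternative. The median of scaffolds crossed 0, from −0.036 (without WT replicate 4) to 0.032 (oligodendrocyte covariate), and that of adhesion genes ran from 0.012 to 0.039. Of all genes, 139 were called, and the number was 236 with a trended and robust prior, 75 with no moderation, 62 with a replicate block, 54 with the oligodendrocyte and 12 with the hippocampal marker mean as a covariate, and 93 to 120 with each array left out. The replicate block changed no call of a member, and of the other named genes it ended that of Efnb2. No pairing by the numbers in the labels was seen. Deviations of same-numbered arrays correlated between −0.33 and 0.087, and 1 of 5 WT arrays was closest to its own number. With 5 arrays per genotype these values cannot settle whether arrays shared a litter or batch. Efnb2 was also not called in 3 other alternatives, and Cbln1 was called with a trended and robust prior (adjusted p = 0.0462). The cause of these moves was not tested, and the hippocampal marker mean did not overlap between the genotypes.

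The sign was the same in every alternative for 16 members, lower for Dlg1, Dlg4, Dlgap1, Dlgap4, Iqsec1, Lrrc4b, Ptprs and Adam22 and higher for Dlgap2, Nlgn1, Lrrtm4, Lrrc4c, Slitrk3, Ptprd, Lgi1 and Adam23. It changed in at least 1 for the other 23, none of which differed by more than 0.096. With array weights the sign changed for Dlg2 (0.0033), Dlgap3 (−0.0032), Synpo (0.0038). With the oligodendrocyte covariate the sign changed for Dlg2 (0.092), Dlg3 (0.041), Shank3 (0.049), Homer1 (−0.015), Cnksr2 (−0.080), Iqsec2 (0.032), Synpo (0.047), Gphn (−0.032), Nlgn2 (0.015), Lrrtm1 (0.036), Lrrtm3 (−0.0092), Lrrc4 (−0.039). With the mean of all probe sets the sign changed for Dlg2 (0.0072), Nlgn2 (0.012), Nlgn3 (−0.029), Nrxn2 (−0.00047), Lrrtm1 (0.012) and Insyn2a (−0.030). With centring the sign changed for Dlgap3 (−0.0031). With the striatal covariate the sign changed for Dlgap3 (−0.011), Nlgn3 (−0.00014). With the hippocampal covariate the sign changed for Homer1 (−0.014), Cnksr2 (−0.028), Iqsec2 (0.015), Synpo (0.021), Kalrn (−0.030), Gphn (−0.053), Nlgn3 (−0.12), Nrxn3 (−0.055), Lrrtm1 (0.082). With quantile normalization the sign changed for Synpo (0.0043). Leaving out each array in turn gave −0.045 to 0.019 for Dlg2, −0.026 to 0.0031 for Dlg3, −0.036 to 0.042 for Dlgap3, −0.0069 to 0.10 for Shank1, −0.0091 to 0.046 for Homer2, −0.062 to 0.073 for Cnksr2, −0.0065 to 0.023 for Baiap2, −0.042 to 0.042 for Synpo, −0.0100 to 0.029 for Gphn, −0.028 to 0.014 for Nlgn2, −0.017 to 0.030 for Nlgn3, −0.045 to 0.0063 for Lrrtm1, −0.092 to 0.0035 for Lrrtm2, −0.029 to 0.063 for Lrrtm3, −0.036 to 0.080 for Lrrc4, −0.028 to 0.014 for Slitrk1, −0.050 to 0.017 for Il1rapl1. Without a sign change it moved by over 1.5 times for Dlg1 (−0.12 to −0.046), Dlgap2 (0.041 to 0.28), Shank3 (−0.095 to −0.0023), Homer1 (0.011 to 0.065), Iqsec1 (−0.087 to −0.012), Iqsec2 (−0.070 to −0.013), Kalrn (0.018 to 0.050), Nlgn1 (0.060 to 0.16), Nrxn2 (0.0013 to 0.055), Lrrtm4 (0.047 to 0.16), Slitrk3 (0.037 to 0.12) and Adam22 (−0.10 to −0.041). The count of members with a larger SD in WT was 23 to 33 with each array left out, and 23 without WT replicate 1. Shank1 and Insyn2b could not be fitted with the dim genes left out.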
